A study of Homo sapiens with 18 samples.

Results

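The 32 genes described here are interferon-stimulated effector genes, a listed set of genes that cells switch on in response to interferons and whose products act on viruses or on the cell itself. They were chosen by name, leaving out the IFIT, OAS, sensor, chemokine, STAT, IRF and antigen presentation genes of the same response. Among 18417 genes with a symbol on the array, all 32 were found, each read by 1 transcript cluster, the group of probes that the array assigns to one gene. Their log2 signals were compared between knockdown and siControl, and between R1881 and vehicle, in LNCaP and VCaP, human prostate cancer lines that respond to androgen.

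Interferons of type I and type III are secreted when a cell detects viral nucleic acid. They bind receptors that activate JAK kinases, and a complex of STAT proteins with IRF9 then enters the nucleus and binds the interferon-stimulated response element in the promoters of target genes. Some of the products block steps of viral entry, replication or release, and others modify proteins, degrade RNA or promote cell death.

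The series held 18 arrays of total RNA. Each culture had received 1 of 3 kinds of siRNA: a control (siControl), siCTBP1-AS, aimed at a long RNA transcribed antisense to CTBP1 (a corepressor), or siPSF, aimed at PSF, which binds RNA and is the product of SFPQ. At 48 h after transfection they received vehicle (ethanol) or R1881, a synthetic androgen, having been kept for 3 days in charcoal-stripped serum (2.5% in the case of LNCaP, 5% in that of VCaP). LNCaP set 1 held siControl and siCTBP1-AS with 10 nM R1881. LNCaP set 2 held siControl and an siCTBP1-AS marked #2 with 1 nM, and LNCaP set 3 held siControl and siPSF with 10 nM. In VCaP, siControl, siCTBP1-AS #2 and siPSF were each combined with 1 nM. Every combination of siRNA and treatment in a set was 1 array, so a set had 4 arrays in LNCaP and 6 in VCaP, and each set had its own siControl arrays. The mark on the siRNA, the R1881 dose and the set changed together between sets 1 and 2, so they cannot be told apart, and neither can line, dose and set for siPSF. The labels do not state separate cultures, and the p-values rest on the spread among these arrays alone, part of which may be technical. With the set as a block, that spread is how R1881 responses, and their changes with each siRNA, differed between sets. It does not measure the spread between repeats of a combination. The sets of a fit share it, although their doses and siRNA marks differ. The 6 VCaP arrays alone leave no spread to estimate, so p-values for VCaP use one shared with LNCaP.

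Set medians over all 33297 transcript clusters were 5.74 to 6.8 on the log2 scale, and arrays of a set had correlations of 0.974 to 0.993 over genes (not independent of each other), so levels are compared within a set. SFPQ, the target of siPSF, differed by -1.18 with siPSF (log2 scale, SE 0.14, adjusted p = 0.000748 by limma over both lines). CTBP1-AS was not analysed here, so its knockdown was not checked. The 3 prostate markers measured, KLK2, KLK3 and HOXB13, stood at percentiles 75.6 to 99.8 of all genes over the 4 sets. The siControl vehicle array of set 1 stood apart from the other siControl arrays for the genes described here: their median lay at percentile 61.9 of all genes there, against 31 to 39.3 on the other 7 siControl arrays. Most counts that move without it are given beside them, and values without it for only some of the genes.

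Promoter windows of 300 bases, from 250 before to 50 after the annotated start, were available for 29 of the 32 genes (RefSeq, GRCh38.p14). They were searched on both strands for GAAA, any 2 bases and GAAA again, the core of the interferon-stimulated response element, with overlapping matches counted. A match lay in at least 1 window of 21 of the 29 genes (72.4%), against 4.38% of 27305 genes in the same table. The stretches below, written 5′ to 3′ on the strand of the gene with matches on either strand that lie before the start in capitals, are shown for genes that the results turn on. RSAD2, IFI44L and SAMD9 had the largest differences with siCTBP1-AS in LNCaP among genes with a match.
RSAD2, chr2:6877602-6877671, plus strand: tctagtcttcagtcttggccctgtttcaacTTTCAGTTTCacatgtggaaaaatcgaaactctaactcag
IFI44L, chr1:78620254-78620414, plus strand: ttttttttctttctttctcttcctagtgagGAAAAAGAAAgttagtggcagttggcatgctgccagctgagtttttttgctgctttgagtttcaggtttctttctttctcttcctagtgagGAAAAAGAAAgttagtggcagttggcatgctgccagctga
SAMD9, chr7:93118076-93118145, minus strand: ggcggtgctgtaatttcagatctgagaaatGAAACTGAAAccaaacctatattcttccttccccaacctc
HERC5 and MX1 differed between the lines, BST2 between the LNCaP sets, and IFI6 and HERC5 had 3 matches each. For MX1 the stretch is from 1 of its 3 annotated windows.
HERC5, chr4:88456964-88457084, plus strand: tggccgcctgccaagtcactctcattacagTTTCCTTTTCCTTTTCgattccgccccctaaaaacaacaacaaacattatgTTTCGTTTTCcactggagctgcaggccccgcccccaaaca
MX1, chr21:41431824-41431893, plus strand: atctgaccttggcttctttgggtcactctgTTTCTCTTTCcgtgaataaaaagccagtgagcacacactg
BST2, chr19:17405715-17405790, minus strand: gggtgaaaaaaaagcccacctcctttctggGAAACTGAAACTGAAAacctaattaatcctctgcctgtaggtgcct
IFI6, chr1:27672246-27672378, minus strand: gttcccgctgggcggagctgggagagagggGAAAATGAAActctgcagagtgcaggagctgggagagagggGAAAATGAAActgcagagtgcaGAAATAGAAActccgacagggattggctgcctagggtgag
DDX60 and DDX60L are neighbouring, related genes, and ISG15 encodes the ubiquitin-like protein that HERC5 attaches to other proteins.
DDX60, chr4:168318766-168318870, minus strand: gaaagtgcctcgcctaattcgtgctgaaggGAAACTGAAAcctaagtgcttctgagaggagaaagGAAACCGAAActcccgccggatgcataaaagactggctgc
DDX60L, chr4:168480503-168480602, minus strand: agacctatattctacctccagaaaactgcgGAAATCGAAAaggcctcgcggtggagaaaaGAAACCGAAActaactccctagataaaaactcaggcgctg
ISG15, chr1:1013354-1013429, plus strand: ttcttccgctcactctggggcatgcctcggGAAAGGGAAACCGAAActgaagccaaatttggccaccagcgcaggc
ISG20 and EPSTI1 carried the core as well and had among the smallest differences of the whole set.
ISG20, chr15:88638917-88638986, plus strand: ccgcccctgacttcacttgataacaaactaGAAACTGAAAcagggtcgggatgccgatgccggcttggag
EPSTI1, chr13:42992252-42992321, minus strand: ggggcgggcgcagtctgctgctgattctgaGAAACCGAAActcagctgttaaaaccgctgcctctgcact
IFI35, IFI16, CMPK2, HERC6, XAF1, SAMD9L, SP110 and UBE2L6 had no match in any window. The median difference with siCTBP1-AS in LNCaP was 2.29 on the log2 scale for genes with a match and 1.82 for genes without, as a description with no test. A match is a run of letters and no match covers only these windows.

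Knockdown with siCTBP1-AS in LNCaP was the first question, asked over sets 1 and 2 with each knockdown array set against the siControl array of its own set. All 32 genes had a higher mean signal with siCTBP1-AS than with siControl in both sets. The differences ran from 0.28 to 4.83 on the log2 scale in set 1, with a median of 2.69, and from 0.04 to 3.45 in set 2, with a median of 1.1. Both knockdown arrays lay above both siControl arrays for 32 of 32 genes in set 1, where 18.9% of all genes did so, and for 26 of 32 in set 2, where 23.5% did. In these bulk cultures, more cells expressing a gene and more RNA per cell cannot be told apart.

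**Figure D1:**
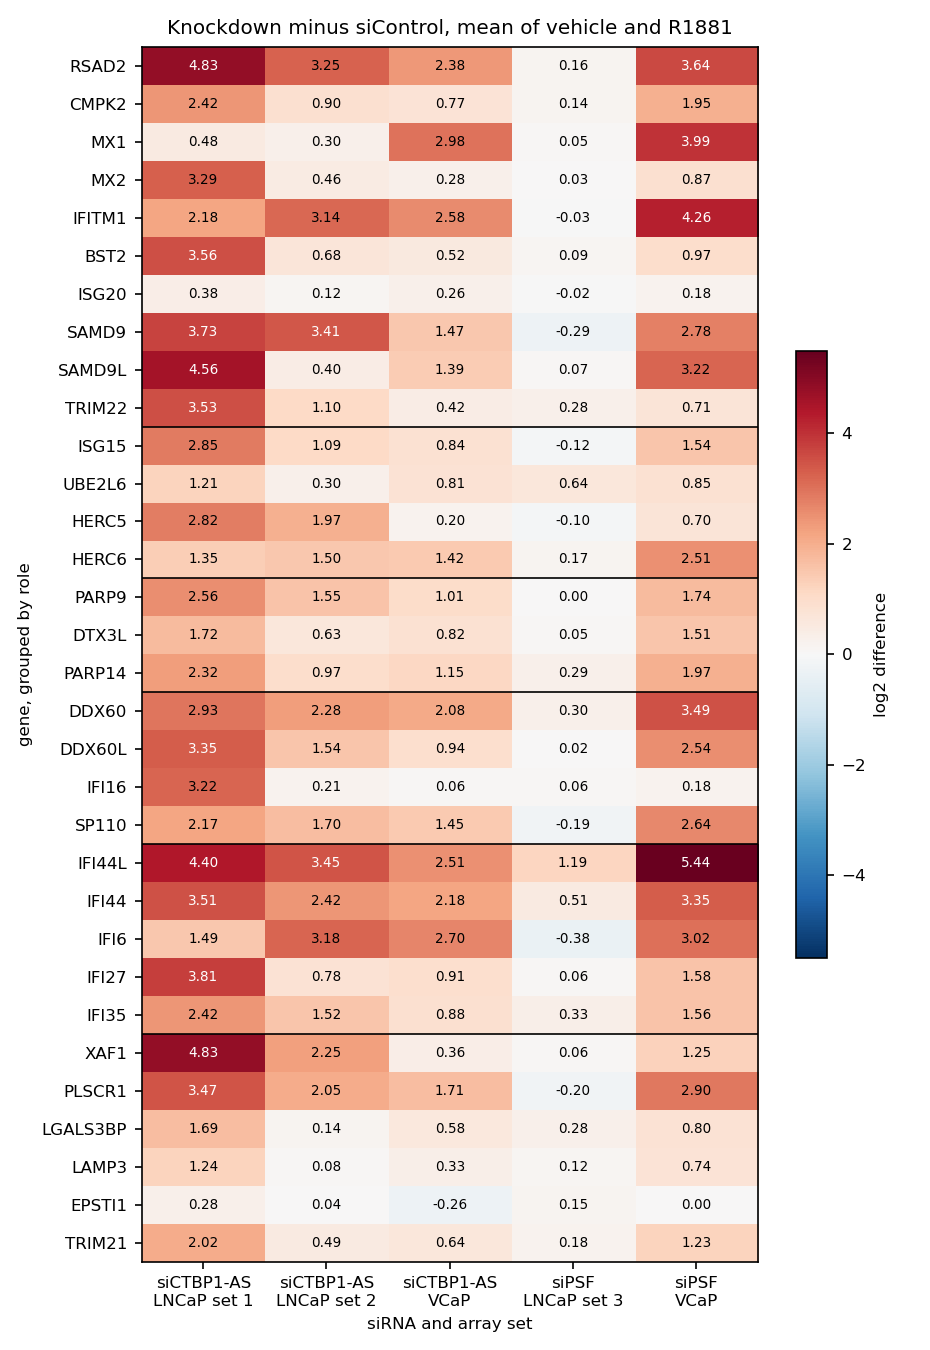
Heat map of knockdown minus siControl on the log2 scale, averaged over vehicle and R1881, for the 32 genes grouped by role (rows) in 5 combinations of siRNA and array set (columns). Red is higher with the knockdown. The siPSF column of LNCaP set 3 runs from -0.38 to 1.19, and the siPSF column of VCaP from 0 to 5.44.

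In the fit of 12 LNCaP arrays, 28 of the 32 genes passed the filter on low signals, and 15 of them were called higher and 0 lower with limma (adjusted p under 0.05 over all genes tested), where 0.615% of all genes were called higher and 0.311% lower. At an unadjusted p under 0.05, 27 of the 28 passed, against 18.1% of all genes. Of the 28, 5 passed the filter only through the knockdown arrays (MX2, RSAD2, DDX60L, PLSCR1 and TRIM22), so the count without the filter is the fuller one: 15 of all 32 genes, where 0.451% of all genes were called higher. The median difference over all 32 was 2.01, against 0 over all genes. The count fell to 6 without the siControl vehicle array of set 2 and to 7 without the siCTBP1-AS vehicle array of set 1, and was 12 without the siControl vehicle array of set 1, where XAF1, DDX60L and PLSCR1 were no longer called, and 12 on sets 1 and 2 alone. Of the 15 calls, those of RSAD2, SAMD9, IFI44, DDX60 and HERC5 held in each of the 10 fits that left out 1 array. The call was lost in 9 of the 10 for IFI6, in 8 for DDX60L and in 7 for XAF1, and in 1 to 4 for the other 7. The folds below are ratios of fitted array signals, and several rest on siControl signals in set 2 below the filter's threshold of 5.25.

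Of the genes whose products restrict viruses, 3 of 9 tested were called higher: RSAD2, SAMD9 and IFITM1. RSAD2 encodes viperin, which makes a nucleotide that stops viral polymerases. Its siControl signals in set 1 were 6.92 (vehicle) and 5.7 (R1881, the order kept below), against 11.15 and 11.14 after siCTBP1-AS. In set 2 they were 4.93 and 4.49, against 8.02 and 7.89 after siCTBP1-AS. The groups did not overlap in either set, and RSAD2 rose 16.4-fold (log2 4.04, SE 0.32, adjusted p = 0.00436 by limma). CMPK2, a mitochondrial nucleotide kinase encoded beside RSAD2, had a difference of 1.66 that was not called (SE 0.3, adjusted p = 0.0563).

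SAMD9, a cytoplasmic protein that restricts poxviruses, stood at 8.95 and 6.44 with siControl in set 1, against 11.37 and 11.47. In set 2 its siControl signals were 5.14 and 4.32 and its siCTBP1-AS signals 8.23 and 8.05. Every knockdown array was at least 2 log2 units above its siControl array of the same treatment, and SAMD9 rose 11.9-fold (log2 3.57, SE 0.33, adjusted p = 0.00684 by limma). Its neighbour and relative SAMD9L did not pass the filter in this fit. In set 1 it had 5.92 and 4.78 with siControl against 9.96 and 9.86 with siCTBP1-AS. Its set 2 signals were 3.45 and 3.54 against 3.97 and 3.81, so the groups were apart there too, with a smaller gap.

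IFITM1, a membrane protein that blocks entry of enveloped viruses, rose by 2.66 (SE 0.31, adjusted p = 0.0152). BST2, or tetherin, which holds budding virions at the cell surface, had a difference of 2.12 that was not called (SE 0.57, adjusted p = 0.139), made up of 3.56 in set 1 and 0.68 in set 2. Of the dynamin-like GTPases, MX2 had 1.88 (SE 0.54, adjusted p = 0.152), with 3.29 in set 1 and 0.46 in set 2. TRIM22, a ubiquitin ligase, had 2.31 (SE 0.45, adjusted p = 0.0653), with 3.53 and 1.1 in the 2 sets. All 3 genes were higher with the knockdown in both sets, by much more in set 1.

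MX1 and ISG20 were among the 3 smallest differences of the 28 genes tested. MX1, a GTPase related to MX2, had signals of 6.03 and 5.87 with siControl in set 1, against 6.45 and 6.4. Its set 2 signals were 4.5 and 4.03 in the controls against 4.72 and 4.42, so the ranges overlapped there. The difference was 0.39 (1.31-fold, SE 0.1, adjusted p = 0.124). ISG20, an exonuclease that degrades RNA, stood at 8.03 and 8.14 with siControl in set 1, against 8.5 and 8.43. In set 2 it stood at 6.35 and 7.12 with siControl, against 6.84 and 6.88, again overlapping. Its difference was 0.25 (1.19-fold, SE 0.12, adjusted p = 0.343).

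The ISG15 system attaches the small protein ISG15 to other proteins through a chain of enzymes. Of 4 genes grouped with it here, HERC6 only as a relative of the ligase HERC5, 2 were called higher. ISG15 itself had 8.04 and 6.48 with siControl in set 1, against 10.05 and 10.18 with siCTBP1-AS, and 5.67 and 6.07 against 7.08 and 6.85 in set 2. Its difference of 1.97 was not called (SE 0.42, adjusted p = 0.0857), although knockdown arrays were higher in both sets. HERC5, the main ligase, rose by 2.4 (SE 0.19, adjusted p = 0.00436). HERC6, its relative, rose by 1.42 (SE 0.19, adjusted p = 0.0199). UBE2L6, the conjugating enzyme, completed the 3 smallest with 0.76 (1.69-fold, SE 0.21, adjusted p = 0.151). Its signals were 8.28 and 8.14 with siControl in set 1 against 9.35 and 9.49, and 7.25 and 6.68 in set 2 against 7.56 and 6.97, so the groups overlapped in set 2.

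Among genes of ADP-ribosylation, which modifies proteins with ADP-ribose, 1 of 3 was called, and PARP9 rose by 2.06 (SE 0.25, adjusted p = 0.0152). Its partner DTX3L, a ubiquitin ligase, had 1.18 (SE 0.25, adjusted p = 0.0835), and PARP14, which adds single ADP-ribose units, had 1.64 (SE 0.3, adjusted p = 0.0565). Of the helicase-like and nuclear proteins, DDX60 rose by 2.6 (SE 0.27, adjusted p = 0.00963), its relative DDX60L by 2.44 (SE 0.38, adjusted p = 0.0354) and the nuclear body protein SP110 by 1.94 (SE 0.22, adjusted p = 0.0138). IFI16, a nuclear sensor of DNA, did not pass the filter on low signals. It stood at 4.5 and 4.68 with siControl in set 1 against 7.88 and 7.73 with siCTBP1-AS, and at 3.15 and 3.18 against 3.34 and 3.41 in set 2.

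IFI44L and IFI44 are neighbouring, related genes whose products are widely used to score an interferon response. With IFI6 and IFI35 they made 4 of 5 tested IFI genes called higher. IFI44L had 9.9 in vehicle and 6.52 in R1881 with siControl in set 1, against 12.68 and 12.53 with siCTBP1-AS. In set 2 it had 3.75 and 3.61, against 7.51 and 6.74. Knockdown arrays were above both siControl arrays in each set, and IFI44L rose 15.1-fold (log2 3.92, SE 0.5, adjusted p = 0.0164).

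IFI44 had 8.69 and 6.54 with siControl in set 1 against 11.13 and 11.12, and 6.14 and 4.92 in set 2 against 8.28 and 7.62. The groups were apart in both sets and IFI44 rose 7.78-fold (log2 2.96, SE 0.32, adjusted p = 0.0106). IFI6, a small membrane protein that limits viral replication, rose by 2.33 (SE 0.4, adjusted p = 0.0473). In set 1 it was already at 13.35 with siControl in vehicle and reached 14.06, close to the highest signal on any array, 14.75. IFI35 rose by 1.97 (SE 0.23, adjusted p = 0.0152), and IFI27, a small mitochondrial protein, had 2.29 (SE 0.64, adjusted p = 0.148), with 3.81 in set 1 and 0.78 in set 2.

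Of the genes of cell death, membranes and secretion, 2 of 4 tested were called higher. XAF1, an antagonist of the apoptosis inhibitor XIAP, stood at 7.98 and 5.59 with siControl in set 1, against 11.63 and 11.6. In set 2 it had 4.59 and 4.52, against 7.22 and 6.39. All 4 knockdown arrays were above their controls and XAF1 rose 11.6-fold (log2 3.54, SE 0.58, adjusted p = 0.0429). PLSCR1, a phospholipid scramblase, had 7.07 and 5.27 with siControl in set 1 against 9.77 and 9.51, and 3.79 and 3.73 in set 2 against 6.32 and 5.3. It rose 6.77-fold with no overlap in either set (log2 2.76, SE 0.37, adjusted p = 0.0199).

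The remaining genes of this kind were not called. TRIM21, a cytosolic antibody receptor, had 1.26 (SE 0.29, adjusted p = 0.102) and LGALS3BP, a secreted glycoprotein, had 0.92 (SE 0.29, adjusted p = 0.18). LAMP3, a lysosomal membrane protein, and EPSTI1 did not pass the filter, with differences of 0.66 and 0.16 in the fit without it. EPSTI1 stayed between 3.6 and 4.15 on the 8 arrays of sets 1 and 2.

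**Figure D2:**
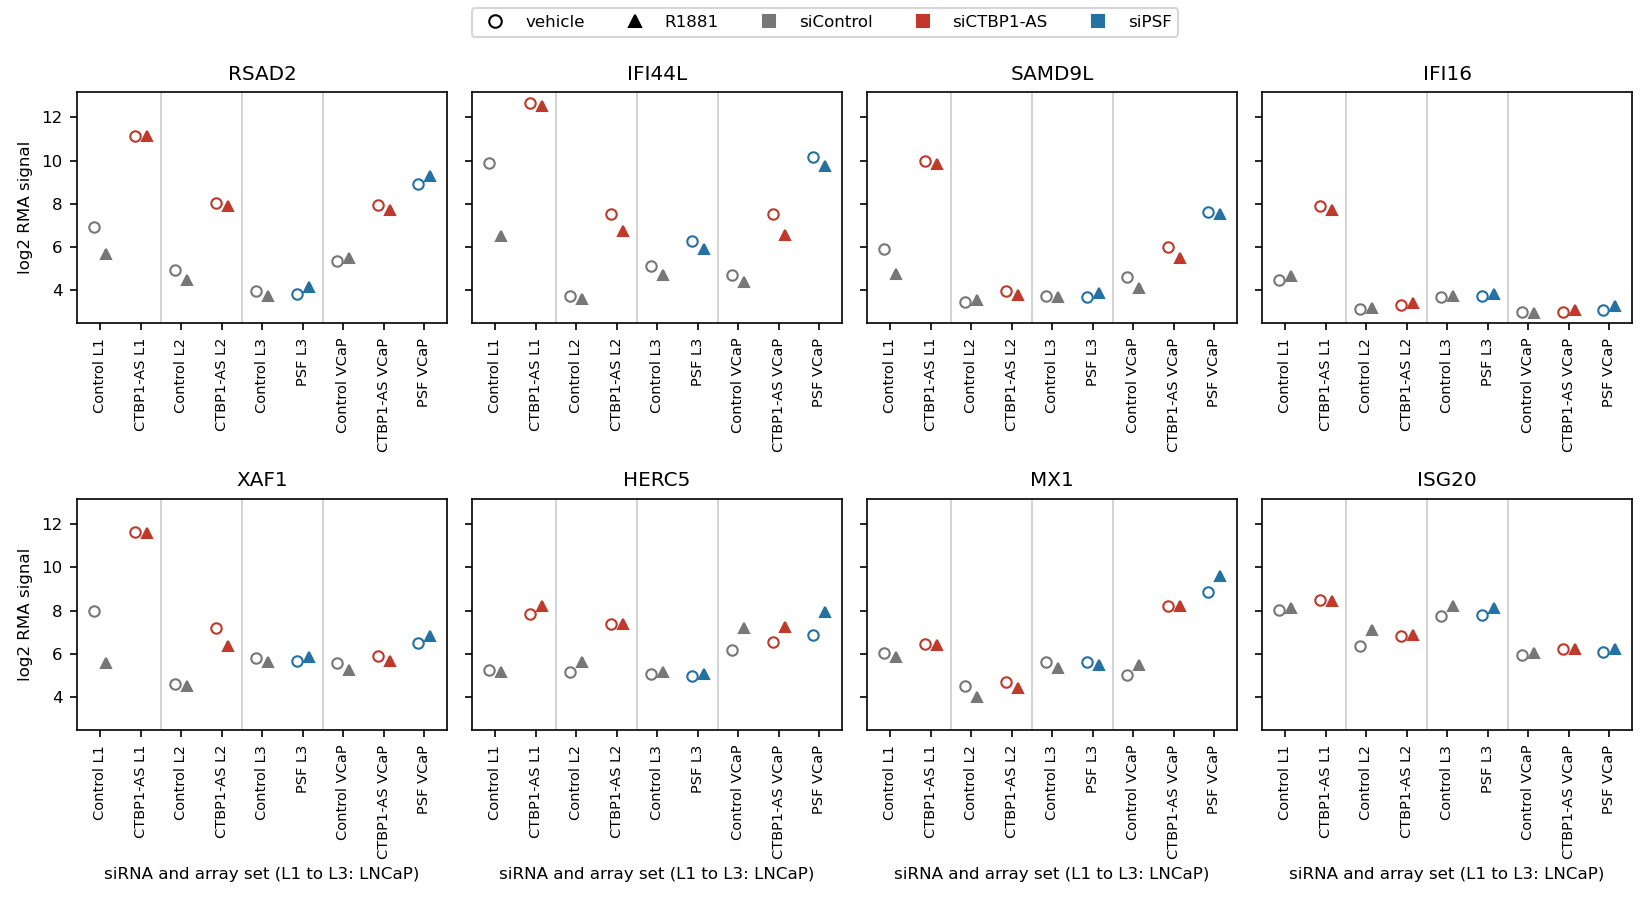
Log2 RMA signal (vertical axis) of 8 genes on every array, by siRNA and array set (horizontal axis; L1 to L3 are LNCaP sets 1 to 3, and Control, CTBP1-AS and PSF are the siRNAs). Open circles are vehicle and filled triangles R1881, 1 array each. For RSAD2 and IFI44L the knockdown arrays lie above the siControl arrays with siCTBP1-AS in each of its sets and with siPSF in VCaP. XAF1 with siCTBP1-AS is 4.83 above siControl in set 1 and 0.36 above it in VCaP, MX1 is 0.48 and 2.98 above, and IFI16 is 3.22 above in set 1 and 0.21 in set 2.

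Sets 1 and 2 were then compared with each other, in a fit of all 18 arrays with 1 term per set and siRNA. In all fits of 18 arrays, 28 of the 32 genes passed the filter, and 4 of those (MX1, RSAD2, DDX60L and SAMD9L) passed only through the knockdown arrays, so counts over all 32 without the filter are given beside those of the 28. The difference with siCTBP1-AS was larger in set 1 for 14 of 28 genes tested and smaller for 0, with 19 of 28 at an unadjusted p under 0.05, against 25% of all genes (5.28% of all genes were called larger and 3.92% smaller). Without the filter, 14 of 32 were larger. Ordered by size, the first were SAMD9L, larger by 4.17 (SE 0.34, adjusted p = 0.000878), IFI27 by 3.03 (SE 0.67, adjusted p = 0.0257) and BST2 by 2.88 (SE 0.48, adjusted p = 0.00976). XAF1 followed with 2.58 (SE 0.65, adjusted p = 0.0396), DDX60L with 1.8 (SE 0.38, adjusted p = 0.0209) and RSAD2 with 1.58 (SE 0.33, adjusted p = 0.0203). IFI6, IFITM1 and HERC6 had smaller values in set 1, with -1.69, -0.96 and -0.15, and were not called. The count was 4 without the siCTBP1-AS vehicle array of set 1, 2 without the siCTBP1-AS R1881 array of set 1, 7 without the siControl R1881 array of set 2, and 4 and 2 without the siCTBP1-AS vehicle and R1881 arrays of set 2. Without the siControl vehicle array of set 1 it was 21. The values were then 4.73 for SAMD9L, 4.15 for IFI27, 3.67 for BST2, 3.68 for XAF1, 2.38 for DDX60L and 2.08 for RSAD2.

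Tested set by set in that fit, as alternatives added after seeing the data, siCTBP1-AS was higher for 25 of 28 genes in set 1 (1.88% of all genes higher, 1.09% lower) and for 17 of 28 in set 2 (8.88% higher, 11.1% lower). None of the 28 was called lower in either, and the largest in set 1 were RSAD2 and XAF1 with 4.83 each and SAMD9L with 4.56. Without the siControl vehicle array of set 1 the order changed, with IFI44L at 5.97 (4.4 with it), XAF1 at 5.93, RSAD2 at 5.33 and SAMD9L at 5.13. Without the filter, 28 of 32 were called higher in set 1 and 18 of 32 in set 2. In set 2 the count was 11 without either of the siCTBP1-AS arrays. The largest called in set 2 were IFI44L with 3.45, SAMD9 with 3.41, RSAD2 with 3.25, IFI6 with 3.18, IFITM1 with 3.14 and IFI44 with 2.42. Among the genes tested there, LAMP3 at 0.08, ISG20 at 0.12 and LGALS3BP at 0.14 had the smallest.

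In VCaP the question was the same, in another line. With siCTBP1-AS, both knockdown arrays lay above both siControl arrays for 30 of 32 genes, where 13.3% of all genes did. EPSTI1 lay below (14.1% of all genes did), and HERC5 overlapped with siControl. The median difference was 0.9. In the set-wise fit, 8 of 28 genes were called higher (0.5% of all genes were higher and 0.485% lower) and 0 lower. These were MX1, IFI6, IFITM1, RSAD2, IFI44, DDX60, HERC6 and SAMD9L, and the same 8 of 32 were called without the filter. The count fell to 1 or 2 when any of the 6 VCaP arrays was left out, and MX1 was called each time.

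MX1 had 5.04 and 5.47 with siControl in VCaP and 8.23 and 8.23 with siCTBP1-AS. These 2 pairs of arrays were clearly apart, and MX1 rose by 2.98 (SE 0.14, adjusted p = 5.62e-05). IFI6 went from 9.66 and 10.67 to 12.88 and 12.84, a rise of 2.7 (SE 0.39, adjusted p = 0.0239). IFITM1 went from 6.19 and 6.31 to 9.13 and 8.52, a rise of 2.58 (SE 0.37, adjusted p = 0.0239). RSAD2 went from 5.38 and 5.52 to 7.94 and 7.72, a rise of 2.38 (SE 0.23, adjusted p = 0.00414).

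The test of the difference between the lines set the mean of LNCaP sets 1 and 2 against VCaP. With siCTBP1-AS, 3 of 28 genes rose more in LNCaP (1.25% of all genes were larger there) and 1 rose more in VCaP (0.898%). Without the filter it was 6 and 1 of 32, with IFI16, MX2 and TRIM22 added. XAF1 differed most, larger in LNCaP by 3.18 (SE 0.56, adjusted p = 0.0294). Its VCaP signals were 5.58 and 5.26 with siControl against 5.89 and 5.66 with siCTBP1-AS. HERC5 was larger in LNCaP by 2.19 (SE 0.19, adjusted p = 0.00241). In VCaP it had 6.19 and 7.22 with siControl against 6.57 and 7.25 with siCTBP1-AS, so the groups overlapped. RSAD2 was larger in LNCaP by 1.66 (SE 0.29, adjusted p = 0.0265). LNCaP minus VCaP was -2.58 for MX1 (SE 0.17, adjusted p = 0.00125). The number larger in LNCaP was 1 without any one of the 4 siCTBP1-AS arrays of LNCaP, 5 without either siControl array of set 3, 9 without the siControl R1881 array of set 1 and 14 without its siControl vehicle array. MX1 and HERC5 were called each time. Without the siControl vehicle array of set 1, XAF1 was at 3.73 and RSAD2 at 1.91.

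Set 1 differs from VCaP in the siRNA mark and in the R1881 dose as well as in the line, while set 2 has the mark and dose of VCaP. A test of set 2 alone against VCaP, added after seeing the data, called 1 of 28 genes larger in LNCaP and 1 larger in VCaP (5.03% and 4.66% of all genes), and the same counts of 32 without the filter. HERC5 was larger in LNCaP set 2 by 1.77 (SE 0.22, adjusted p = 0.00333), and MX1 had -2.67 (SE 0.2, adjusted p = 0.00099). XAF1, with 1.89 (SE 0.65, adjusted p = 0.103), and RSAD2, with 0.87 (SE 0.33, adjusted p = 0.132), did not pass at matched mark and dose. The array set and the line still cannot be told apart there.

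**Figure D3:**
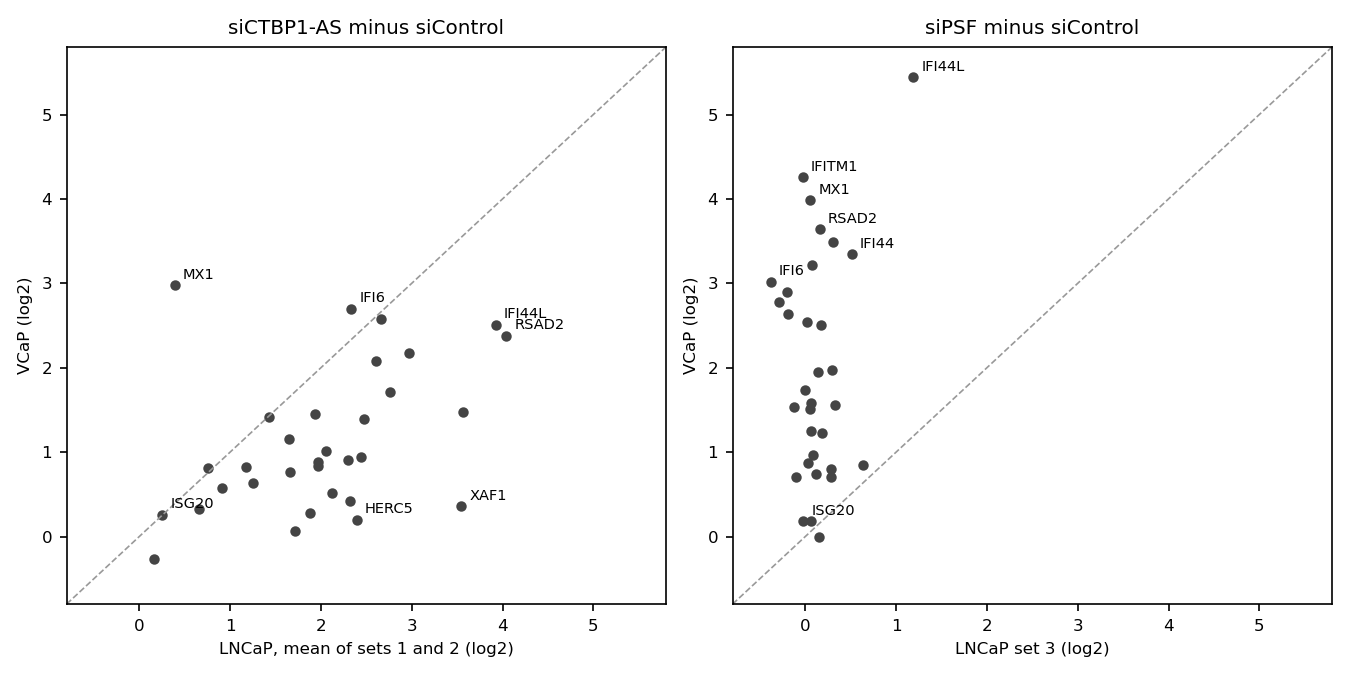
Knockdown minus siControl (log2, mean of vehicle and R1881) in LNCaP (horizontal axis) and VCaP (vertical axis) for siCTBP1-AS (left) and siPSF (right). Each point is 1 of the 32 genes and the dashed line marks equal differences. With siCTBP1-AS, MX1 lies above the line at 0.39 and 2.98 and XAF1 and HERC5 lie below it. With siPSF the points lie between -0.38 and 1.19 in LNCaP and reach 5.44 in VCaP.

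Knockdown of PSF was measured in LNCaP set 3 and in VCaP. In LNCaP set 3 the median difference with siPSF was 0.06. Both siPSF arrays were above both siControl arrays for 11 of 32 genes and below for 4, where 22.9% and 17.2% of all genes were. In the set-wise fit 0 of 28 genes were called by limma in either direction there and 2 had an unadjusted p under 0.05, against 18.7% of all genes (0.782% of all genes were called higher and 1.51% lower). IFI44L had the largest value in set 3, 1.19 (SE 0.64, adjusted p = 0.358), followed by UBE2L6 with 0.64 (SE 0.17, adjusted p = 0.0927). The lowest were IFI6 with -0.38 and SAMD9 with -0.29. SFPQ in the same arrays differed by -0.79 (SE 0.12, adjusted p = 0.0141), and in VCaP by -1.44 (SE 0.12, adjusted p = 0.00058).

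In VCaP both siPSF arrays lay above both siControl arrays for 30 of 32 genes (12.9% of all genes), with a median difference of 1.66. HERC5 and EPSTI1 overlapped with siControl. In the set-wise fit 24 of 28 genes were called higher and 0 lower (1.52% of all genes higher, 2.97% lower). The 4 not called were IFI27, XAF1, BST2 and ISG20. Without the filter 23 of 32 were called higher, and ISG15 was not among them. The count was 8 and 12 without the siControl vehicle and R1881 arrays of VCaP, and 4 and 2 without its siPSF vehicle and R1881 arrays.

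IFI44L had VCaP signals of 4.69 and 4.37 with siControl against 10.18 and 9.76 with siPSF, a rise of 5.44 on the log2 scale (SE 0.64, adjusted p = 0.00216). Its siControl signals there lay at percentiles 19.9 and 15 of all genes and below the filter's threshold of 5.27, so no fold is given. In set 3 it had 5.14 and 4.72 with siControl against 6.3 and 5.93 with siPSF, so it was also above siControl there, with a smaller gap. IFITM1 had 6.19 and 6.31 in VCaP and 10.59 and 10.42 with siPSF, a rise of 4.26 (SE 0.37, adjusted p = 0.00058). In set 3 its values were 9.78 and 9.12 with siControl against 9.82 and 9.02 with siPSF, which overlapped.

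MX1 reached 8.87 and 9.61 with siPSF in VCaP, a rise of 3.99 (SE 0.14, adjusted p = 3.86e-06). RSAD2 reached 8.92 and 9.27 from 5.38 and 5.52, a rise of 3.64 (SE 0.23, adjusted p = 0.000281), while its set 3 values were 3.96 and 3.73 with siControl against 3.84 and 4.17 with siPSF. DDX60 rose by 3.49 (SE 0.32, adjusted p = 0.000818). IFI44 went from 5.44 and 5.8 to 8.6 and 9.35, a rise of 3.35 (SE 0.35, adjusted p = 0.00135), and in set 3 had 5.67 and 5.33 with siControl against 6.25 and 5.78 with siPSF. All 4 genes grouped with the ISG15 system were called higher in VCaP, with HERC6 at 2.51, ISG15 at 1.54, UBE2L6 at 0.85 and HERC5 at 0.7. ISG15 was no longer called without the filter. The HERC5 groups overlapped, with 6.19 and 7.22 for siControl against 6.86 and 7.94 for siPSF.

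The difference of the siPSF values between the lines was called for 13 of 28 genes, all larger in VCaP (0.42% of all genes), and for 0 in the other direction (0.463%). Without the filter it was called for 12 of 32, PARP14 no longer among them. LNCaP minus VCaP was -4.29 for IFITM1 (SE 0.52, adjusted p = 0.0165), -3.94 for MX1 (SE 0.2, adjusted p = 0.000102) and -3.48 for RSAD2 (SE 0.33, adjusted p = 0.00818). It was -3.4 for IFI6, -3.19 for DDX60 and -3.15 for SAMD9L. IFI44L had -4.25 and was not called (SE 0.9, adjusted p = 0.0654). The count was 3 without the siControl R1881 array of set 3, and 20 without either siControl array of set 1.

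A single siPSF term over both lines, with set 3 and VCaP as its replicates, called 1 of 28 genes (0.188% of all genes higher, 1.26% lower), with 22 of 28 at an unadjusted p under 0.05 (13.4% of all genes) and a median of 1.3. Without the filter 0 of 32 were called by limma. That gene was IFI44L with 3.76 (SE 0.82, adjusted p = 0.0459). RSAD2 had 2.36 (SE 0.69, adjusted p = 0.134), IFITM1 2.32 (SE 0.67, adjusted p = 0.132) and IFI44 2.2 (SE 0.53, adjusted p = 0.0697). IFITM1 was at -0.03 in set 3 and at 4.26 in VCaP. The count was 0 without the siControl vehicle array of set 1, the siCTBP1-AS vehicle array of set 1 or of set 2, the siControl R1881 array of set 2 or the siControl vehicle array of set 3, and 6 without the siControl R1881 array of set 3.

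The same kind of term for siCTBP1-AS over sets 1, 2 and VCaP called 4 of 28 genes higher and 0 lower (0.224% of all genes higher, 0.34% lower), with a median of 1.51, and 2 of 32 without the filter. Those called with the filter were RSAD2 with 3.12 (SE 0.57, adjusted p = 0.0444), IFI44 with 2.42 (SE 0.44, adjusted p = 0.0444), IFI35 with 1.46 (SE 0.29, adjusted p = 0.0496) and UBE2L6 with 0.76 (SE 0.14, adjusted p = 0.0444). Of these, RSAD2 passed the filter only through the knockdown arrays. The count was 0 or 1 without any one LNCaP array of sets 1 and 2 or the siControl vehicle array of set 3, and 0 without the 4 arrays of set 1.

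The knockdowns were compared with each other next. Over both lines, siPSF minus siCTBP1-AS was called by limma for 0 of 28 genes (0.145% of all genes were called higher and 0.514% lower). At an unadjusted p under 0.05, 0 of the 28 passed, against 11.6% of all genes. The largest values were 0.75 for MX1 (SE 0.69) and 0.74 for IFI44L (SE 0.93), and the lowest were -0.99 for XAF1 (SE 0.85) and -0.8 for HERC5 (SE 0.5). In VCaP, where both siRNAs shared the same siControl arrays and dose, siPSF arrays had the higher mean for 31 of 32 genes. That share was not counted over all genes. By limma in VCaP, 7 of 28, and the same 7 of 32 without the filter, were called higher with siPSF and 0 lower (1.32% of all genes higher, 1.6% lower). They were IFI44L with 2.93 (SE 0.64, adjusted p = 0.0441), SAMD9L with 1.83 (SE 0.24, adjusted p = 0.00636), IFITM1 with 1.68 (SE 0.37, adjusted p = 0.0449), DDX60L with 1.6 (SE 0.27, adjusted p = 0.0158), RSAD2 with 1.26 (SE 0.23, adjusted p = 0.0246), CMPK2 with 1.18 (SE 0.19, adjusted p = 0.0127) and MX1 with 1.01 (SE 0.14, adjusted p = 0.00788). The count was 1 without the siCTBP1-AS vehicle array and 0 without the siCTBP1-AS R1881 array or either siPSF array.

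The response to R1881 was the last question. How long R1881 was given is not known here. In the 6 siControl arrays of LNCaP, 3 with vehicle and 3 with R1881, 0 of 23 genes tested were called by limma (0.224% of all genes were called higher and 0.029% lower). At an unadjusted p under 0.05, 0 of the 23 passed, against 2.33% of all genes. The median of the 23 was -0.58, against -0.02 over all genes. IFI44L had -1.31 (SE 1.08) and IFI44 -1.23 (SE 0.66). Without the siControl vehicle array of set 2 the count was 3 lower, with IFI44L at -2.57. That fit held no block for the set, and the vehicle signals of IFI44L left in it were 9.9 (set 1) and 5.14 (set 3). Its call there is therefore not read as support for a response. Without the siControl R1881 array of set 2 IFI44L was at -0.64 and not called. IFI44 was at -0.31 without the siControl vehicle array of set 1, where IFI44L did not pass the filter, and at -1.81 without that of set 3. ISG20 had 0.46 (SE 0.52) and HERC6 0.27 (SE 0.58). When the arrays of a set were paired by their replicate number (the replicate block), 1 gene was called lower and 0 higher (2.41% of all genes lower, 2.9% higher). At an unadjusted p under 0.05, 12 of the 23 passed with the block, against 19.9% of all genes. The gene called was LGALS3BP, with -0.87 (SE 0.11, adjusted p = 0.00951). It stood at 10.04 and 9 in set 1, at 7.29 and 6.5 in set 2 and at 9.41 and 8.64 in set 3, in vehicle and R1881, lower with R1881 in 3 of 3 sets.

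**Figure D4:**
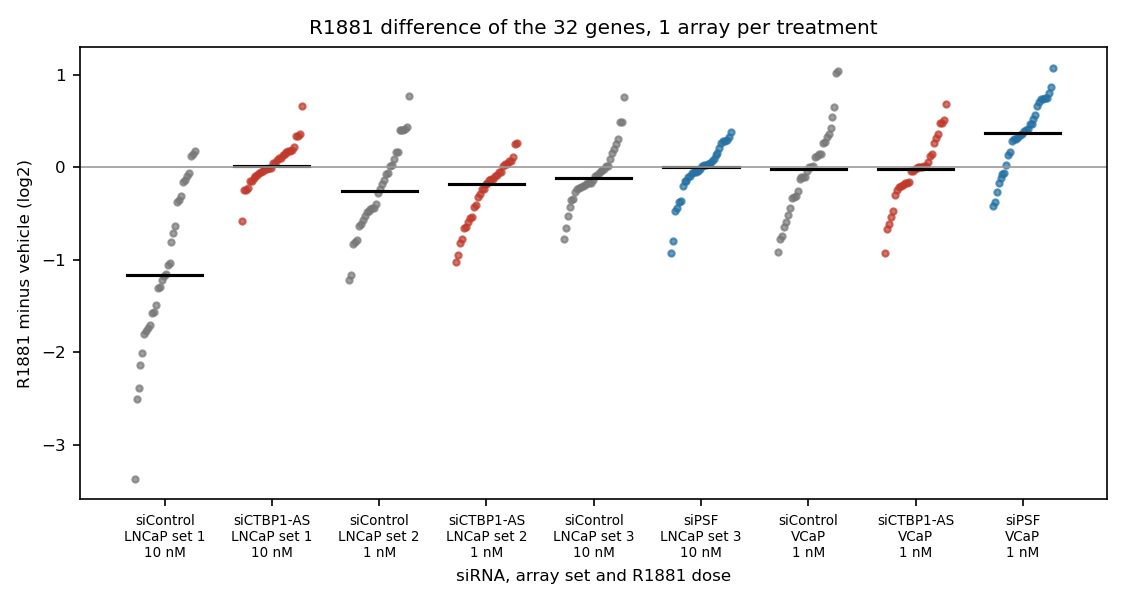
R1881 minus vehicle (log2) for the 32 genes in each combination of siRNA and array set, with the R1881 dose under each column. Points are genes in order of their value and black lines are medians, with 1 array per treatment. The siControl column of LNCaP set 1 has a median of -1.16, and the other 8 medians lie between -0.26 and 0.37.

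Set by set, 1 array stood against 1, so there is no test. In set 1 with siControl the median of R1881 minus vehicle was -1.16 and 19 of 32 genes were below -1, where 0.814% of all genes were. The lowest values there were -3.37 for IFI44L, -2.51 for SAMD9, -2.39 for XAF1 and -2.14 for IFI44, while HERC5, TRIM22, ISG20, EPSTI1 and IFI16 moved by less than 0.2. The vehicle array of that pair is the one that stood apart: on it 22 of the 32 genes had their highest percentile of the 8 siControl arrays. The share of all genes that did so was not counted. The medians with siControl were -0.26 in set 2, -0.11 in set 3 and -0.02 in VCaP. With siCTBP1-AS they were 0.02 in set 1, -0.18 in set 2 and -0.02 in VCaP, and with siPSF 0 in set 3 and 0.37 in VCaP. The median level of the 32 genes in set 1 was 7.96 (vehicle) and 6.53 (R1881) for siControl, against 9.95 and 9.99 after siCTBP1-AS.

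The change of the R1881 response with each knockdown was called for 0 of 28 genes with siCTBP1-AS and 0 of 28 with siPSF by limma (0% of all genes in either). At an unadjusted p under 0.05, 1 and 0 of the 28 genes passed, against 3.49% and 1.94% of all genes. With siCTBP1-AS the largest were SAMD9 with 0.9 (SE 1.1) and LGALS3BP with 0.64 (SE 0.4), and the lowest ISG20 with -0.37 (SE 0.17) and HERC6 with -0.31 (SE 0.59). With siPSF, SAMD9 had 1.28 (SE 1.27) and SP110 1.08 (SE 0.88), and IFI6 had -0.19 (SE 1.07) and ISG20 -0.11 (SE 0.19). The R1881 response of LNCaP minus that of VCaP was called for 0 of 28 by limma (1.92% of all genes higher, 1.64% lower). At an unadjusted p under 0.05, 0 of the 28 passed, against 17.7% of all genes. IFI44 had -1.15 (SE 0.8), IFI6 -0.81 (SE 0.87), SAMD9L 0.27 (SE 1.2) and ISG20 0.17 (SE 0.16).

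Other genes of the interferon pathway were counted from lists that leave out the 32. With siCTBP1-AS in LNCaP, 4 of 4 tested IFIT genes rose, led by IFIT1 with 4.33 (SE 0.36) and IFIT2 with 4.03 (SE 0.24). IFIT proteins bind viral RNA. Of 13 sensors of double-stranded RNA and OAS genes, 5 rose, among them OAS1 with 3.73 (SE 0.34), OASL with 2.97 (SE 0.28) and IFIH1 with 2.74 (SE 0.16). Of the interferons themselves, 2 of 3 tested rose. IFNL1, a type III interferon, rose by 1.83 (SE 0.13), from 6.62 and 6.52 to 8.57 and 8.69 in set 1 and from 5.2 and 5.36 to 6.92 and 6.85 in set 2. IFNL2 rose by 0.79 (SE 0.13). IFNB1, the type I interferon of most cell types, did not pass the filter and stood at 2.95 to 4.85 on all 18 arrays.

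The receptors and JAK kinases had 0 of 9 called, with JAK1 at -0.14 (SE 0.16). Of the STAT and IRF genes 1 of 7 rose, IRF9 with 2.07 (SE 0.3), and 1 of 5 negative regulators, USP18 with 1.51 (SE 0.2). CXCL10, with 4.37 (SE 0.68), and CCL5, with 2.97 (SE 0.2), rose among 6 chemokines. Antigen presentation had 0 of 9 called, guanylate-binding proteins 1 of 1 (GBP2, with 1.86) and NF-kappaB targets 0 of 7. All list counts hold only genes that passed the filter on low signals, here 1 of 4 guanylate-binding proteins on the array. On the siControl arrays of LNCaP alone, 0 of these 4 passed it. For IFIT it was 3 in place of 4, for sensors and OAS 12 in place of 13, and for chemokines 4 in place of 6. No gene of these lists was called lower in this comparison.

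In the set-wise fit the counts with siCTBP1-AS were larger for several of these lists. The filter of that fit took in the knockdown arrays, where many of these genes were higher. How many list genes would pass on its siControl arrays alone was not counted. Of all genes, 1.88% were called higher and 1.09% lower in set 1, and 8.88% and 11.1% in set 2. In set 1, 10 of 12 sensors and OAS genes, 5 of 6 chemokines, 7 of 9 antigen presentation genes (among them B2M and TAP1), 4 of 7 STAT and IRF genes (IRF1, IRF2, IRF7 and IRF9), 2 of 7 NF-kappaB targets (TNFAIP3 and NFKBIA) and 1 of 9 receptors and kinases (IFNGR2) rose, and none fell. In set 2, 9 of 12 sensors and OAS genes, 3 of 6 chemokines, 3 of 9 antigen presentation genes (ERAP2, PSMB9 and TAP1), 1 of 7 STAT and IRF genes and 0 of 7 NF-kappaB targets rose by limma. There MAVS, which relays the signal of RNA sensors, was called lower, and of 9 receptors and kinases 2 were higher and 1 lower. As counts, the single lower calls of these lists and the single STAT and IRF gene called higher are near the shares of all genes in set 2. All 4 IFIT genes and USP18 rose in both sets.

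With siPSF in VCaP, in the set-wise fit, 4 of 4 IFIT genes, 7 of 12 sensors and OAS genes, 2 of 3 interferons, 3 of 7 STAT and IRF genes, 4 of 6 chemokines and 4 of 9 antigen presentation genes rose. Of all genes, 1.52% were called higher and 2.97% lower. The genes tested in these lists were again those that passed the filter with the knockdown arrays included. IFIT1 rose by 4.52 (SE 0.51), OAS2 by 3.02 (SE 0.41), CXCL10 by 2.6 (SE 0.26) and IRF9 by 2.26 (SE 0.29), while IFNL1 rose by 0.71 (SE 0.16) and JAK1 had -0.04 (SE 0.2). In set 3 the sensor TLR3, with 1.04 (SE 0.17), was the single gene of these lists called with siPSF, and IRF9 had 0.36 (SE 0.29). There 0.782% of all genes were called higher and 1.51% lower. With siCTBP1-AS in VCaP, IFIT1 with 2.79, IRF9 with 1.86, USP18 with 1.14, CXCL8 with 2.41 and PSMB9 with 0.77 rose, and IFNL1 had 0.28 (SE 0.16). That was 1 of 4 IFIT genes, 1 of 7 STAT and IRF genes, 1 of 5 negative regulators, 1 of 6 chemokines and 1 of 9 antigen presentation genes. Of 12 sensors and OAS genes and of 3 interferons, 0 were called. For this comparison 0.5% of all genes were called higher and 0.485% lower.

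Markers of other cell types were read beside these results. Of 6 leukocyte markers, 4 lay below the 25th percentile in set 1, and the summed level of the list was 9.39 to 9.45 with siControl and 10.79 to 10.92 with siCTBP1-AS there. CD68, a lysosomal protein and the highest of them, had 9.04 and 8.96 against 10.61 and 10.65, while the leukocyte marker PTPRC lay at percentiles 1.1 to 2.7 of all genes on the 4 arrays of that set. In set 2 the leukocyte sum was 8 to 8.71 and 8.55 to 8.71, and in VCaP 7.56 to 7.69 with siControl, 7.76 to 7.87 with siCTBP1-AS and 7.76 to 7.79 with siPSF. Of the 3 markers measured of plasmacytoid dendritic cells, the main producers of type I interferon in blood, 2 lay below the 25th percentile in every set. All 4 endothelial markers lay below it in sets 1, 2 and VCaP, and 3 of 4 in set 3. Fibroblast markers were less uniformly low. Of 6, 3 lay below it in set 1, 3 in set 2, 2 in set 3 and 1 in VCaP. COL1A1 stood at percentiles 49.05 to 61.15 over the sets, and LUM at 61.15 in VCaP. The fibroblast sum in VCaP was 8.11 to 10.09 with siControl, 8.24 to 9.35 with siCTBP1-AS and 8.52 to 10.4 with siPSF. The part of other cells in the results was not tested.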

How the data were processed

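Total RNA of 18 samples of LNCaP and VCaP was hybridised to HuGene arrays, which carry 1 colour. The deposited values are log2 signals, for which the submitters' processing notes name RMA and version 1.1.1 of Affymetrix Expression Console. Which arrays RMA took together is unknown here. A table of probes and genes named 1 symbol for 19460 of 33297 transcript clusters, several for 1754 and none for 12083. Of a gene with several clusters, the one with the highest mean was used.

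The log2 values were fitted with limma 3.58.1 (R 4.3.3), after leaving out the 25% of genes with the lowest mean. Models held the array set as a block, R1881, each siRNA and their products. Genes were called at an adjusted p under 0.05 (Benjamini-Hochberg over all genes tested). The knockdown effect is the mean over vehicle and R1881. Same-numbered siControl arrays of LNCaP form a set, and their deviations correlated at 0.71 to 0.84, so the replicate block was fitted as the alternative for R1881. The fits were tested on simulated data. Array number limits the precision. RefSeq promoter windows were searched for the motif. Members and gene lists were chosen with earlier results of these data known. Values on every array go to the 6 members with the largest siCTBP1-AS effect in LNCaP, the 3 tested members with the smallest and up to 4 with the largest siPSF effect. In other comparisons up to 6 called members are named, or the 2 largest and 2 lowest values where none was called. Genes named beyond this were chosen after their values were seen, among them the further members with values by array or by set. Other alternatives were other filters, normalization, cluster rules and array subsets, and leaving out each array.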

Additional observations from a re-analysis of the deposited data

Results flagged for a closer look

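The effect of a knockdown differed between LNCaP and VCaP for 15 genes over both siRNAs, of 28 tested among the 32, by limma's test of the difference itself (values are LNCaP minus VCaP on the log2 scale). For siCTBP1-AS 1.25% of all genes were called larger in LNCaP and 0.898% larger in VCaP, and for siPSF 0.463% and 0.42%. For siCTBP1-AS these were XAF1 with 3.18, HERC5 with 2.19, RSAD2 with 1.66 and MX1 with -2.58. MX1, a GTPase that traps viral nucleocapsids, had the larger effect in VCaP. With 1 array left out, 1 to 14 were larger in LNCaP. Against VCaP, set 2 alone, which has the same siRNA mark and dose, kept the calls of HERC5 and MX1, and XAF1 and RSAD2 were not called.

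For siPSF the difference was -4.29 for IFITM1, -3.94 for MX1, -3.48 for RSAD2, -3.4 for IFI6, -3.19 for DDX60, -3.15 for SAMD9L, -3.1 for PLSCR1, -2.84 for IFI44 and -2.83 for SP110. It was -2.52 for DDX60L, -2.34 for HERC6, -1.81 for CMPK2 and -1.68 for PARP14. The count was 3 to 20 with 1 array left out. Line, R1881 dose and array set cannot be told apart here. SFPQ differed by 0.64 in the same test (adjusted p = 0.107 by limma), and its part in the result was not tested.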

How the results depend on the processing

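Counts are of members called by limma, and the cause of each change was not tested unless stated. For siCTBP1-AS in LNCaP, 15 became 1 without the array set as a block. Over both lines, the siCTBP1-AS count of 4 became 2 without a filter, 9 with the lower 50% of genes left out, 13 on the siControl and siCTBP1-AS arrays alone, 0 without set 1, and 25, 17 and 8 for the terms of set 1, set 2 and VCaP. The siPSF count of 1 became 0 without a filter, 2 with the 50% filter, 0 on its own arrays, 0 in set 3 and 24 in VCaP, and IFITM1 turned to -0.03 in set 3. For siPSF minus siCTBP1-AS the VCaP terms called 7, and XAF1 and HERC5 turned to 0.89 and 0.49. LNCaP minus VCaP for siCTBP1-AS gave 6 higher without a filter, 1 higher with set 2 alone, and 0 higher and 0 lower with the 50% filter, which tests fewer genes. With that filter siPSF gave 7 lower and set 1 minus set 2 gave 8 higher.

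The replicate block, which pairs the siControl arrays of an LNCaP set, called 1 gene lower with R1881, 1 without a filter too, and 1 lower and 1 higher without set 1. It was fitted for no other comparison, where the array set is already a block.

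Leaving out 1 array at a time gave 6 to 15 for siCTBP1-AS in LNCaP, 0 to 4 over both lines, 0 to 6 for siPSF over both lines, 0 to 3 lower with R1881, 1 to 14 higher for siCTBP1-AS in LNCaP minus VCaP and 3 to 20 lower for siPSF. It gave 2 to 21 higher and 0 to 2 lower for set 1 minus set 2, 11 to 17 for set 2, 1 to 2 for siCTBP1-AS and 2 to 22 for siPSF in VCaP, and 0 to 5 for their difference there. Signs turned for the R1881 response of HERC6 (-0.32 to 0.8) and ISG20 (-0.05 to 0.81), for the R1881 product of HERC6 with siCTBP1-AS (-0.49 to 0.13) and of IFI6 with siPSF (-0.57 to 0.34), and for SAMD9L in the R1881 response of LNCaP minus VCaP (-0.02 to 0.71). None of these was called. Of 1606 values of single genes under alternatives, 1338 kept their side of the threshold and direction and 247 lost the call. The fit of siPSF minus siCTBP1-AS on the 6 VCaP arrays alone was not run, since its model leaves no residual degrees of freedom. Set-wise terms, set 2 against VCaP and fits without set 1 were chosen after seeing the data.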
